A study of Mus musculus with 10 samples.

Results

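The P2Y nucleotide receptor genes of the mouse, P2ry1, P2ry2, P2ry4, P2ry6, P2ry10, P2ry12, P2ry13 and P2ry14, were chosen by name as a gene family, and all 8 were found among the 37417 genes of the count table. Transcript was measured by RNA-seq in 10 subcutaneous tumors, collected 16 days after Panc02 cells, a pancreatic cancer line of the mouse, had been injected into wild-type C57BL/6J mice of 12 weeks. The injected cells of 5 tumors expressed a guide against Cda, which encodes cytidine deaminase (sgCda), and those of the other 5 a nontargeting guide (sgNT). Cells of both groups also carried a doxycycline-inducible Cas9 and had been selected with puromycin. The sgCda group stands for 1 guide, and per the methods edited lines were derived by limiting dilution. Only the cancer cells were edited, so every host cell in a tumor had an intact Cda gene. The labels do not say whether the tumors of a group came from separate cell preparations, so p values measure the spread between these tumors.

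P2Y receptors are G protein-coupled receptors of the cell surface that sense nucleotides released by stressed, dying or activated cells. UTP and ATP act on P2Y2, UTP on P2Y4, UDP on P2Y6, and UDP and UDP-glucose on P2Y14, whereas ADP is the agonist of P2Y1, P2Y12 and P2Y13. P2Y10 belongs to the family by sequence and responds to lysophosphatidylserine. P2Y1, P2Y2, P2Y4 and P2Y6 couple mainly to Gq, which opens calcium stores through phospholipase C beta, and P2Y12, P2Y13 and P2Y14 couple mainly to Gi, which lowers cyclic AMP. Cytidine deaminase makes uridine from cytidine and thus feeds the pool of uracil nucleotides to which several of these receptors respond.

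The genes lie on chromosomes 3, 7 and X of the GRCm38 genome. P2ry14 (chr3:59113855-59153618), P2ry13 (chr3:59207892-59210882) and P2ry12 (chr3:59216272-59262871) stood side by side on the minus strand of chromosome 3, and all 3 were inside Med12l (chr3:59005825-59318682), which is read from the plus strand. Between P2ry13 and P2ry12 the gap was 5389 bp. P2ry6 (chr7:100937630-100974649) and P2ry2 (chr7:100996568-101012866) were neighbours on the minus strand of chromosome 7, 21918 bp apart. P2ry1 (chr3:61002795-61008982, plus strand) was apart from the cluster on chromosome 3, and P2ry4 (chrX:100590154-100594869, minus strand) and P2ry10 (chrX:107088492-107104974, plus strand) were on the X chromosome. P2ry10 had a close paralog, P2ry10b, at a distance of 43952 bp. The receptor was encoded by 1 coding exon in all genes of the family except P2ry14 (2 annotated coding exons) and P2ry10 (3).

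Upstream sequences are shown for the chromosome 3 neighbours, of which P2ry12 and P2ry13 had the highest correlation of any pair of receptors, and for P2ry2, the member with the smallest spread between tumors. The RefSeq promoter table (GRCm38.p6) matched 7 of the 8 genes, all except P2ry6. The starts used here are those of RefSeq and need not match the gene spans given above. The P2ry2 window lay inside the span given for that gene, and the P2ry14 window lay partly inside its span. Each run is the 250 bases before a transcript start, printed 5′ to 3′ on the gene's own strand, and capitals mark AGGAAG or its reverse complement CTTCCT, a run with the GGAA core that ETS family factors recognise.
P2ry13, chr3:59210883-59211132, minus strand: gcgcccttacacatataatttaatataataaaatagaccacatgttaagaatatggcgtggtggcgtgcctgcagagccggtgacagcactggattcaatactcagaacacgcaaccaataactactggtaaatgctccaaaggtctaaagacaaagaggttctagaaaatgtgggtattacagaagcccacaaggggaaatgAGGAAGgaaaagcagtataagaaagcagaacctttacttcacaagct
P2ry12, chr3:59262986-59263235, minus strand: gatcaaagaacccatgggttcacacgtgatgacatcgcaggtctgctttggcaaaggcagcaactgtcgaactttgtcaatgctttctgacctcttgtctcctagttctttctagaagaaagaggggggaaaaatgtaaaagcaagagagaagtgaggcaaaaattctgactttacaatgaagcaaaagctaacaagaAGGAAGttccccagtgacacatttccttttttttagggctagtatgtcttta
P2ry14, chr3:59153493-59153742, minus strand: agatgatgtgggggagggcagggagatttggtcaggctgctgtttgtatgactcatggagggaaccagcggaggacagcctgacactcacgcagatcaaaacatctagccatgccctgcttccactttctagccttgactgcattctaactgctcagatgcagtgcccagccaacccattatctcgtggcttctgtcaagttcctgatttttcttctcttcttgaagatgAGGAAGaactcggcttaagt
P2ry2, chr7:101012054-101012303, minus strand: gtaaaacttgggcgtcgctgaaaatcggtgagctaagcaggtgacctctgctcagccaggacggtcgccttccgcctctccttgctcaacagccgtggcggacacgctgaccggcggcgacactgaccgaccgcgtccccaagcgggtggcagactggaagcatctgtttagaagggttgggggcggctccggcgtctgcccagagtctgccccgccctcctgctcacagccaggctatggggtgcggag

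The run AGGAAG stood 47 bases before the start of P2ry13 and 52 bases before that of P2ry12. For P2ry14 it stood 20 bases before the most upstream RefSeq start, which lies inside the gene span given above. It was also present 9 bases before the start of P2ry4 and, as CTTCCT, 50 and 30 bases before the 2 starts of P2ry10, so that 5 of the 7 matched genes had it before at least 1 start. Counted by window, 6 of the 12 windows of these genes held it, and the other starts of P2ry14 lacked it. Among all 32817 windows of this length in the table, 29.5% held it on either strand, and the motif was picked with the expression of these genes known, so the matches are a description. The windows of P2ry2 and P2ry1 did not hold these letters and were rich in G and C. GC content was 65.2% before the start of P2ry2 shown here and 70.8% before that of P2ry1, against 41.6% for both P2ry12 and P2ry13 and a median of 52.4% over all windows. The AP-1 run TGACTCA, searched on both strands and held by 4.46% of all windows, occurred once in the family. It lay 202 bases before the most upstream RefSeq start of P2ry14.

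Libraries held between 28051907 and 39484964 counts assigned to genes. Mitochondrial genes took between 3.47% and 3.81% of these counts in 9 tumors and 5.82% in sgCda 4, which also had the highest share of reads outside genes (18.4%, against at most 14.9% in the others) and the lowest depth. Cda transcript was 12.1 ± 1.76 CPM (mean ± SD) over the 5 sgNT and 9.77 ± 2.34 CPM over the 5 sgCda tumors. Its log2 fold change was -0.30 with a 95% confidence interval of -0.67 to 0.06, and the groups overlapped. A whole-tumor count is not a check of the guide. The authors also found Cda transcript in endothelial cells and fibroblasts sorted from such tumors, and they checked targeting in the cell lines by RT-qPCR and western blot. CPM is the count relative to the scaled library size. Of 15299 genes tested, 0 passed an adjusted p of 0.05 by edgeR's quasi-likelihood test, the smallest adjusted p being 0.9996, and 382 had an unadjusted p under 0.05. The DESeq2 Wald test and limma-voom called 0 genes too. Markers of skeletal muscle differed widely between tumors of both groups, with a mean log2 CPM from -2.12 to 6.36 in sgNT and from -2.16 to 8.38 in sgCda tumors. Tumor sgCda 3 had the highest muscle score and also the highest T cell and macrophage scores, and some results are given with and without it.

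The first question was how much transcript of each receptor the tumors held. Of the 8 genes, 7 passed the filter on low counts, which asked for a CPM of at least 0.306 in 5 tumors. P2ry2, P2ry6, P2ry10, P2ry12, P2ry13 and P2ry14 were above it in all 10 tumors, P2ry1 in 4 sgNT and 5 sgCda tumors, and P2ry4 in none. Per length, as CPM per kilobase of annotated exon (RPKM), P2ry6 had the highest level of the family in every tumor, with a mean of 18.0 ± 2.60 (SD, n = 10), followed in every tumor by P2ry10 with 12.7 ± 2.86. P2ry13 (7.53 ± 1.44) and P2ry12 (7.40 ± 1.03) did not separate, since P2ry13 was the higher of the pair in 5 of 10 tumors. P2ry2 came next in every tumor with 3.63 ± 0.307 RPKM, and P2ry1 was near the lower limit of what could be counted with 0.134 ± 0.0677.

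The place of P2ry14 depended on the length used. Its 9 annotated transcripts together cover 11059 exonic bases, whereas its longest protein-coding transcript has 2476, and its level was 1.81 ± 0.354 RPKM by the former and 8.09 ± 1.58 by the latter (SD, n = 10). By all exons P2ry14 was below P2ry2 in all 10 tumors, and by the coding transcript it was above P2ry2 in all 10. The lead of P2ry6 over P2ry14 had a median of 10.2-fold by all exons and 3.40-fold by the coding transcript. By mean level P2ry6 and P2ry10 kept the first and second place under both lengths (26.7 and 13.2 RPKM by the coding transcript), with P2ry6 between 1.03 and 1.91 times the level of P2ry10 by all exons.

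**Figure D1:**
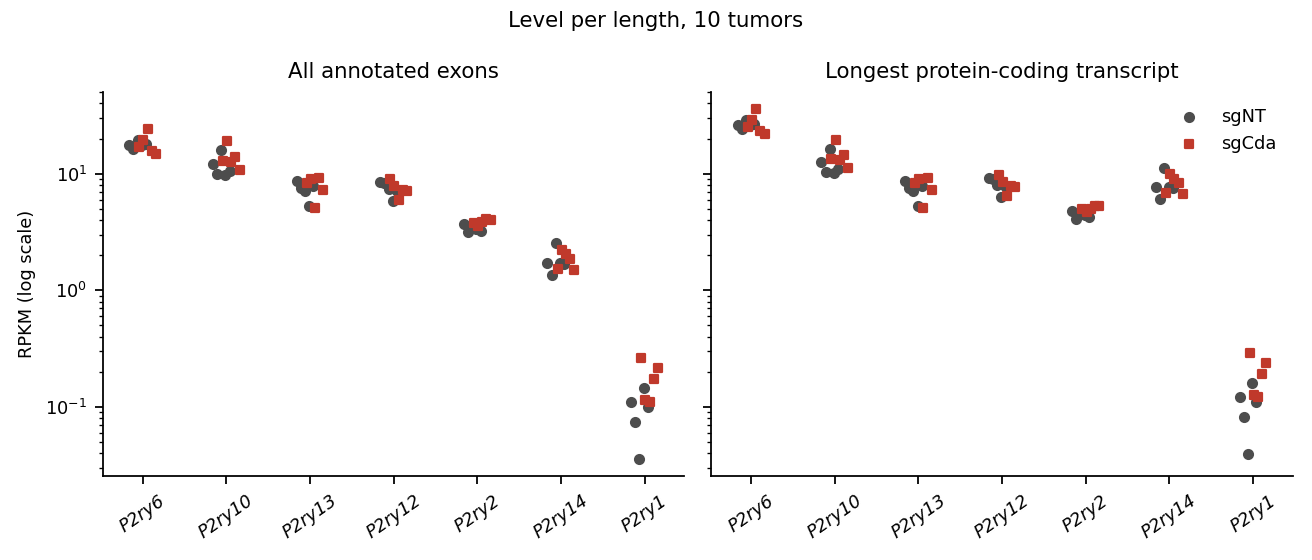
Transcript level per length (RPKM, log axis) of the 7 P2Y receptor genes above the filter in each of the 10 tumors, with circles for sgNT and squares for sgCda, using all annotated exons (left) or the longest protein-coding transcript (right) as length. P2ry6 is highest in both panels, and P2ry14 moves from 1.81 to 8.09 RPKM between them.

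The main comparison asked whether receptor transcript differed between tumors of Cda-targeted and control cancer cells. No receptor gene passed the adjusted threshold (0 of 7, against 0% of all genes tested), and each had an adjusted p of 0.9996 in edgeR's quasi-likelihood test. The groups overlapped for every receptor gene, as for all but 0.601% of the genes tested. An unadjusted p under 0.05 was found for P2ry1 and P2ry2, 2 of 7, where 2.5% of all genes had one in either direction and 1.54% in the direction of a higher value in sgCda. Neither gene had one when sgNT 2, sgNT 5, sgCda 1 or sgCda 5 was left out. P2ry1 met the filter through the sgCda tumors alone but not through the sgNT tumors alone. Its p value and its place in these counts are therefore a description. Fold changes were positive for 6 of 7, against 52.9% of all genes, and their median was 0.10 on the log2 scale, against 0.01 over all genes. In bulk tumors, a difference in the number of cells that carry a receptor and one in transcript per cell cannot be told apart.

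**Figure D2:**
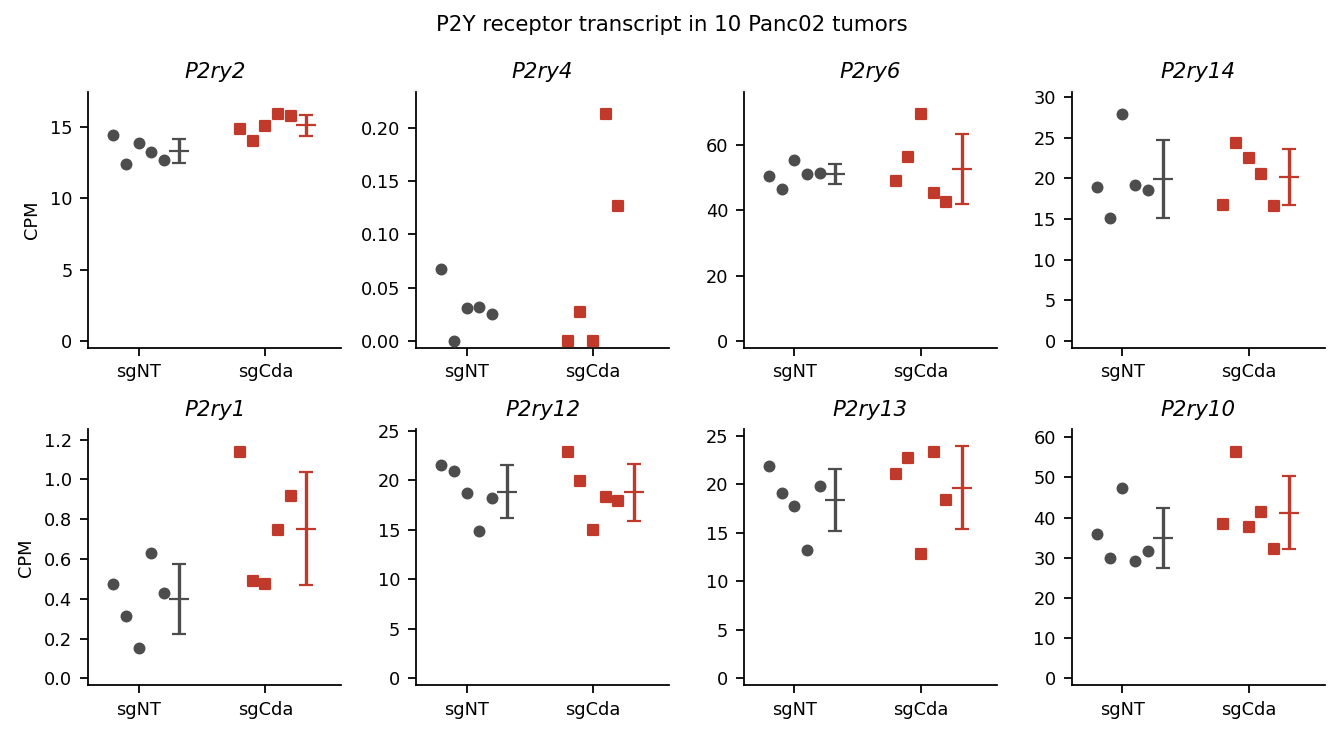
CPM of the 8 P2Y receptor genes in 5 sgNT (circles) and 5 sgCda (squares) tumors, each panel with its own linear axis that includes 0, and with the mean and SD of each group beside the points except for P2ry4, whose values are at or near 0. P2ry1 and P2ry2 show the highest share of sgCda tumors above the sgNT range, 3 and 4 of 5.

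Among the receptors for uracil nucleotides, P2ry2 had 14.5, 12.4, 13.9, 13.3 and 12.7 CPM in sgNT tumors 1 to 5 and 14.9, 14.03, 15.1, 15.9 and 15.8 CPM in sgCda tumors 1 to 5. Only sgCda 2 lay within the sgNT range, and the other 4 sgCda tumors were above it. The log2 fold change was 0.18 (SE 0.08, 95% confidence interval 0.02 to 0.35), which is 13.4% more transcript with an interval of 1.07% to 27.2%, and the edgeR adjusted p was 0.9996. P2ry2 encodes a receptor that is common in epithelial cells. Within groups its log2 CPM had an SD of 0.08, a spread smaller than that of all but 6.70% of the genes tested. Relative to the epithelial marker score, the difference between groups was -0.03 (exact permutation p = 0.857, two-sided), and 0.08 with the median of the marker genes. That score itself differed between groups by 0.21 (exact permutation p = 0.159). P2ry2 had r = 0.35 with it over 10 tumors and -0.02 as deviations from the group means. The subtraction therefore need not remove epithelial content, whose part was not tested.

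P2ry6 had 50.7, 46.7, 55.6, 51.1 and 51.5 CPM in sgNT tumors 1 to 5 and 49.1, 56.4, 69.5, 45.5 and 42.7 CPM in sgCda tumors 1 to 5. The sgCda tumors lay on both sides of the sgNT range, with sgCda 2 and 3 above it and sgCda 4 and 5 below it. The log2 fold change was 0.04 (SE 0.12, 95% confidence interval -0.23 to 0.31), an interval from 14.5% less to 23.9% more transcript. Without sgCda 3 the log2 fold change was -0.08. Between tumors the SD was 3.16 CPM for sgNT and 10.7 CPM for sgCda, and the difference between these spreads was not tested. P2Y6, the UDP receptor, is known from macrophages and microglia, where UDP prompts uptake of debris.

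P2ry14 had 18.9, 15.1, 27.9, 19.1 and 18.6 CPM in sgNT tumors 1 to 5 and 16.8, 24.4, 22.5, 20.6 and 16.5 CPM in sgCda tumors 1 to 5. All sgCda values were inside the sgNT range, and the highest tumor was sgNT 3. The log2 fold change of this UDP-glucose receptor was 0.02 (SE 0.16, 95% confidence interval -0.35 to 0.38). P2ry4, a UTP receptor, had 16 counts in all 10 tumors together. Its counts were 2, 0, 1, 1 and 1 in sgNT tumors 1 to 5 and 0, 1, 0, 6 and 4 in sgCda tumors 1 to 5. A count of 0 in sgNT 2, sgCda 1 and sgCda 3 allows at most 0.0948, 0.0875 and 0.0839 CPM. With no filter on low counts its log2 fold change was 1.06 with an SE of 0.98 (edgeR adjusted p = 0.902), so a difference was not detectable at this depth.

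Among the ADP receptors, P2ry1, the Gq-coupled receptor known for starting platelet shape change, had the fewest counts of the 7 receptor genes tested. It had 14, 10, 5, 20 and 17 counts in sgNT tumors 1 to 5 and 39, 18, 17, 21 and 29 counts in sgCda tumors 1 to 5. Scaled to library size this was 0.400 ± 0.177 CPM (mean ± SD) over the 5 sgNT and 0.753 ± 0.284 CPM over the 5 sgCda tumors. In CPM, sgCda 1, 4 and 5 were above the sgNT range, and sgCda 2 and 3 were inside it but above the sgNT mean. The log2 fold change was 0.90 (SE 0.37, 95% confidence interval 0.08 to 1.73), and the edgeR adjusted p was 0.9996. P2ry1 would have passed the filter through the sgCda tumors alone but not through the sgNT tumors alone, so its fold change and interval are a description. P2ry1 shares 992 of its 4291 exonic bases with the antisense gene Gm37035, and the strand setting of the counting was not stated, so reads of these genes may not be separated.

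P2ry12, the receptor on which ADP acts in platelets and microglia, had 21.5, 21.0, 18.7, 14.9 and 18.2 CPM in sgNT tumors 1 to 5 and 22.9, 20.0, 15.0, 18.3 and 17.9 CPM in sgCda tumors 1 to 5. Except for sgCda 1, which was the highest tumor, all sgCda values were inside the sgNT range. Its log2 fold change was -0.0048 (SE 0.13, 95% confidence interval -0.28 to 0.28). P2ry13, its neighbour and also a Gi-coupled ADP receptor, had 21.9, 19.1, 17.8, 13.3 and 19.8 CPM in sgNT tumors 1 to 5 and 21.1, 22.7, 12.8, 23.3 and 18.4 CPM in sgCda tumors 1 to 5. The lowest tumors were sgCda 3 and sgNT 4 for P2ry13, and the same pair was lowest for P2ry12. The groups overlapped for both genes. For P2ry13 the log2 fold change was 0.10 (SE 0.17, 95% confidence interval -0.28 to 0.47), and it was 0.22 without sgCda 3.

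P2ry10, a lymphocyte receptor for lysophosphatidylserine, had 36.0, 29.9, 47.4, 29.3 and 31.6 CPM in sgNT tumors 1 to 5 and 38.5, 56.3, 37.6, 41.4 and 32.2 CPM in sgCda tumors 1 to 5. The highest tumor was sgCda 2, the only sgCda tumor above the sgNT range. The log2 fold change was 0.24 (SE 0.17, 95% confidence interval -0.13 to 0.61), and it was 0.10 without sgCda 2. Its paralog P2ry10b had 4.98 ± 1.20 CPM (mean ± SD) over the 5 sgNT and 4.86 ± 1.76 CPM over the 5 sgCda tumors, with a log2 fold change of -0.03. Reads that fit both paralogs would have been left out of both counts.

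**Figure D3:**
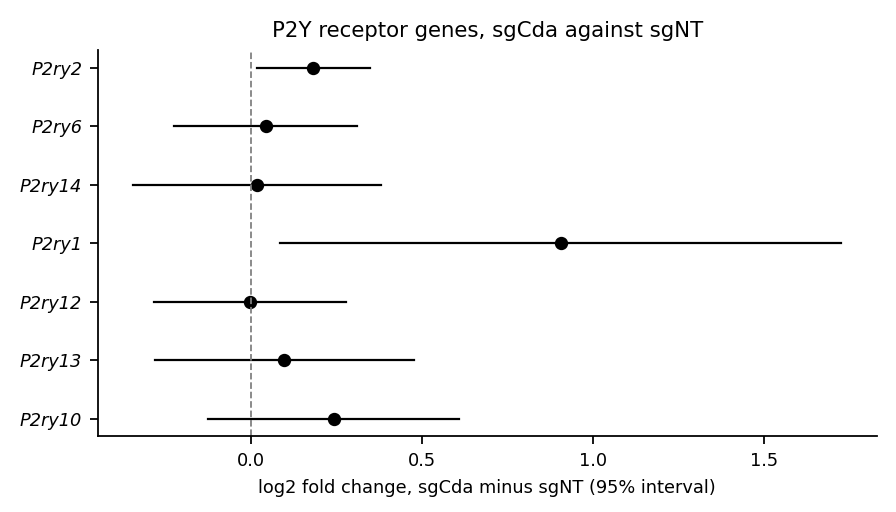
Log2 fold change (dot) of each of the 7 tested P2Y receptor genes, sgCda minus sgNT, with its 95% confidence interval (line), and a dashed line at 0. The intervals of P2ry1 (0.08 to 1.73) and P2ry2 (0.02 to 0.35) lie above 0 before adjustment over all genes, and the other 5 include 0. P2ry1 met the filter through the sgCda tumors but not through the sgNT tumors alone, so its interval is a description.

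To relate each receptor to the cells that are known to carry it, its log2 CPM was compared with the mean log2 CPM of a marker list in the same tumor. P2ry6 was lower than the macrophage score by 1.53 ± 0.0425 in sgNT and by 1.50 ± 0.132 in sgCda tumors on the log2 scale (SD, n = 5 each). The difference of 0.03 gave an exact permutation p of 0.651 (two-sided, 7 comparisons of this kind, adjusted p = 1). P2ry12, P2ry13 and P2ry14 against the same score differed between groups by 0.0029, 0.09 and 0.04. For P2ry13 the difference was 0.30 without sgCda 3. Across the 10 tumors P2ry12 and P2ry13 did not follow the macrophage score (r = -0.29 and -0.48), so subtracting it need not remove the content of cells that carry them. P2ry10 against the T cell score differed by 0.21 (exact permutation p = 0.524). For P2ry10 this difference was 0.45 without sgCda 3 (exact permutation p = 0.0159, adjusted 0.0556) and 0.07 without sgCda 4. P2ry10 had r = 0.41 with the T cell score over 10 tumors, so the subtraction need not remove the content of cells that carry it. For P2ry1 against the endothelial score, the difference was 1.01 with an exact permutation p of 0.0397 (adjusted 0.278), and 4 of 5 sgCda tumors were above the sgNT range. It was 1.27 without sgCda 3 (exact permutation p = 0.00794, adjusted 0.0556) and 0.80 without sgNT 3 (exact permutation p = 0.0714). P2ry1 met the filter through the sgCda tumors alone but not through the sgNT tumors alone, so these p values are a description. With the endothelial score P2ry1 had r = 0.02 over 10 tumors, and that score itself differed between groups by -0.16. The smallest p that the assignments of 10 tumors to groups of 5 allow is 0.00794. For the 8 marker scores themselves, the exact permutation p between groups was 0.159 or more.

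Receptor levels were then set against 8 marker scores across the 10 tumors, regardless of group. Of 56 relations of 7 receptors with 8 lists, 3 had an adjusted p under 0.05 by permutation. P2ry6 followed the T cell score with Pearson's r = 0.97 (permutation p = 7.0e-05, adjusted 0.00392) and Spearman's rho = 0.88 (permutation p = 0.0014, adjusted 0.0261). It followed the macrophage score with r = 0.89 (permutation p = 0.00037, adjusted 0.00691) and rho = 0.92 (permutation p = 0.0005, adjusted 0.0157). P2ry13 followed the dendritic cell score with r = 0.90 (permutation p = 0.00018, adjusted 0.00504) and rho = 0.92 (permutation p = 0.00056, adjusted 0.0157). Taken as deviations from the group means, these r were 0.97, 0.89 and 0.91.

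Without sgCda 3 alone, the relation of P2ry6 with the T cell score (r = 0.94, adjusted permutation p = 0.0375) and that of P2ry13 with the dendritic cell score (r = 0.87, adjusted permutation p = 0.0431) still passed, while that of P2ry6 with the macrophage score did not (r = 0.84, adjusted permutation p = 0.0924). The tumors farthest from the median were then left out in pairs. Without sgCda 3 and sgCda 5, P2ry6 and the T cell score had r = 0.90 over 8 tumors (adjusted permutation p = 0.107). Without sgCda 3 and sgCda 4, P2ry6 and the macrophage score had r = 0.84 (adjusted permutation p = 0.172). P2ry13 and the dendritic cell score had r = 0.75 (adjusted permutation p = 0.287) once sgNT 4 and sgCda 3 were left out, which both lay apart from the other 8 tumors. The r values of P2ry6 thus stayed at 0.84 or more, but none of the 3 relations passed the adjustment over 8 tumors.

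**Figure D4:**
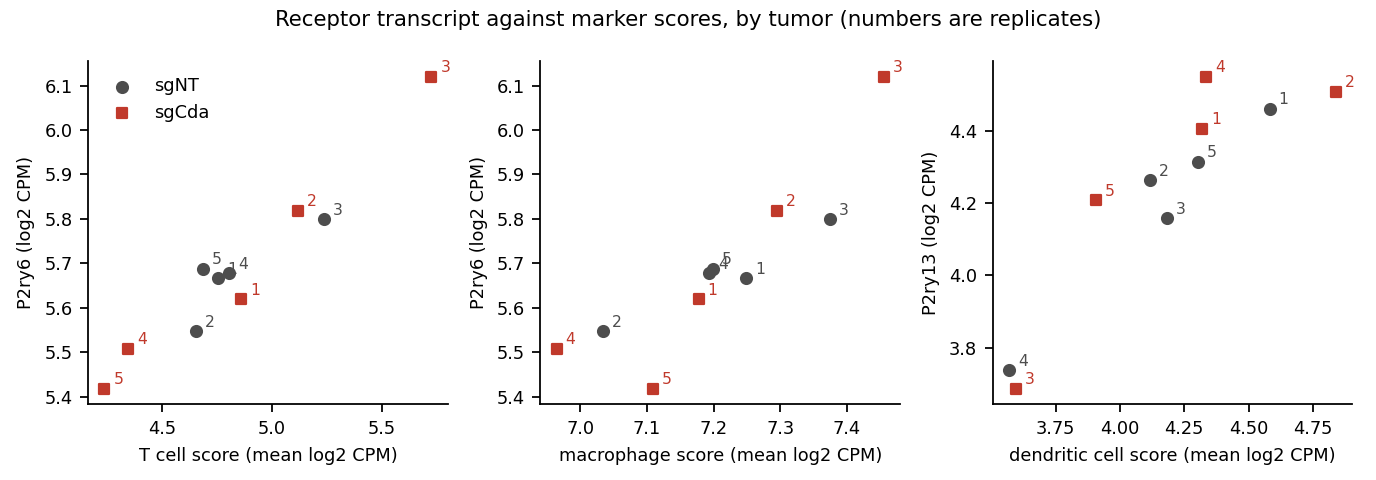
Log2 CPM of P2ry6 against the T cell score (left) and the macrophage score (middle), and of P2ry13 against the dendritic cell score (right), with 1 point a tumor (circles sgNT, squares sgCda) labelled by replicate number. Tumor sgCda 3 is at the upper end for P2ry6 and, with sgNT 4, at the lower end for P2ry13.

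The lists themselves were not independent. The macrophage and T cell scores correlated at r = 0.90 (adjusted permutation p = 0.00480, 8 pairs of scores) and rho = 0.85 (adjusted permutation p = 0.0214). Gene by gene, P2ry6 had r over 0.8 with 10 of the 11 T cell genes, the highest with Lck (r = 0.97), a kinase of the T cell receptor, and the lowest with Cd4 (r = 0.12). With the 12 macrophage genes its median r was 0.66, from -0.82 for Cd163, a scavenger receptor, to 0.84 for Fcgr1, the high-affinity IgG receptor. P2ry6 also had r = 0.75 with the skeletal muscle score (rho = 0.65, adjusted permutation p = 0.249 for r and 0.430 for rho, 35 relations with tissue and library measures). The T cell score had r = 0.78 with it (rho = 0.81, adjusted permutation p = 0.0192 for r and 0.0291 for rho). The part of tissue composition in these relations was not tested.

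P2ry13 had its highest r among the dendritic cell genes with Flt3 (0.98), the receptor of a dendritic cell growth factor, and with Clec9a (0.93) and Itgae (0.91), which mark cross-presenting dendritic cells. Its r was -0.44 with Cd209a, the only negative value among the 8 genes. P2ry12 had r = 0.77 with the dendritic cell score (adjusted permutation p = 0.144), which was 0.35 without sgNT 4 and sgCda 3. On the neutrophil score, r was 0.79 for P2ry13 and 0.70 for P2ry12 over 10 tumors but -0.16 and -0.20 without the same 2 tumors. With the T cell score, r was -0.51 for P2ry13 and -0.28 for P2ry12, and neither passed the adjustment.

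**Figure D5:**
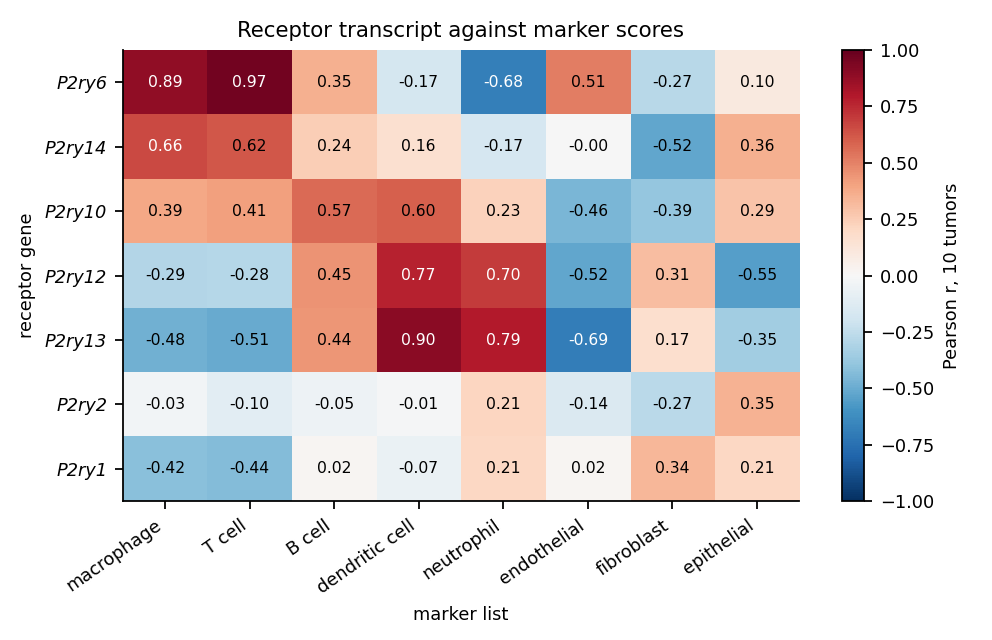
Pearson's r over 10 tumors between the log2 CPM of 7 P2Y receptor genes (rows) and 8 marker scores (columns), from -1 (blue) to 1 (red). The rows of P2ry6 and P2ry14 are positive for macrophage and T cell markers (0.62 to 0.97), and those of P2ry12 and P2ry13 for dendritic cell and neutrophil markers (0.70 to 0.90).

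P2ry14 had r = 0.66 (adjusted permutation p = 0.234) and rho = 0.67 (adjusted permutation p = 0.370) with the macrophage score. Its r was 0.95 without sgCda 3 and sgCda 4 (adjusted permutation p = 0.0196) and 0.86 without sgCda 4 alone (adjusted permutation p = 0.0385). It fell to 0.57 without sgNT 3 (adjusted permutation p = 0.478) and to 0.58 without sgNT 2 (adjusted permutation p = 0.408). P2ry10 had its highest r with the dendritic cell score (0.60, adjusted permutation p = 0.337), and 0.41 with the T cell score. For P2ry1 the r of greatest size among the 8 lists was -0.44, with the T cell score, and for P2ry2 it was 0.35, with the epithelial score.

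Between the receptors themselves, 0 of 21 pairs passed the adjustment. The highest r were 0.81 for the neighbours P2ry12 and P2ry13 and 0.77 for P2ry10 and P2ry14, each with an adjusted permutation p of 0.0962, and their rho were 0.61 and 0.67 (adjusted permutation p = 0.356 and 0.275). Without the 2 tumors farthest from the median, these were 0.76 and 0.50. The other pair of neighbours, P2ry2 and P2ry6, had r = -0.07, with a range of -0.43 to 0.17 when each tumor was left out in turn. P2ry6 and P2ry14 had r = 0.64. Within groups, the SD of log2 CPM was 0.08 for P2ry2, 0.21 for P2ry6, 0.22 for P2ry12, 0.29 for P2ry10 and P2ry14, 0.32 for P2ry13 and 0.58 for P2ry1, against a median of 0.21 over all genes tested.

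The genes most like each receptor across the 10 tumors were sought among the 12947 genes whose log2 CPM averaged 0 or more, and since they are the highest of many their r values carry no test. For P2ry6 these were Sept1 (r = 0.995), which encodes a septin, Rac2 (0.988), a small GTPase of blood cells, and Gng2 (0.979), a G protein gamma subunit. For P2ry13 they were Cbfa2t3 (0.981), a transcriptional corepressor of blood cells, Cd22 (0.976), a B cell lectin, and Flt3 (0.975). P2ry14 was closest to Nod2 (0.969), a sensor of bacterial peptidoglycan, to AB124611 (0.964) and to Ifi30 (0.963), a lysosomal thiol reductase. P2ry12 was closest to Zfp12, 1700020I14Rik and Fbxo21 (0.949, 0.948 and 0.943), and P2ry10 to Gm2a, Ncf1 and Rab20 (0.947, 0.940 and 0.934), of which Ncf1 encodes a subunit of the phagocyte oxidase.

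P2ry2 was closest to Mcmdc2, 9130204K15Rik and Twistnb (0.913, 0.900 and 0.899), and P2ry1 to Hddc2, Ttc32 and Ube2v2 (0.941, 0.926 and 0.899). The number of genes with r over 0.9 was 203 for P2ry13, 142 for P2ry6, 42 for P2ry12, 20 for P2ry14, 11 for P2ry10, and 2 each for P2ry1 and P2ry2.

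The wider P2Y pathway was covered by 62 genes, of which 61 were in the table and 52 passed the filter. None passed the adjusted threshold and none had an unadjusted p under 0.05 in edgeR's quasi-likelihood test, against 2.5% of all genes. A positive log2 fold change was found for 25 of 52, against 52.9% of all genes, with a median of -0.0031. The same share over all genes stands beside the counts of each list below. Of the ectonucleotidases, which break down extracellular nucleotides, 4 of 9 had a positive value. Entpd1 (CD39) had the highest level per length of that list, 21.9 ± 2.64 RPKM (SD, n = 10), with a log2 fold change of -0.05, and the largest value in size was 0.56 for Alpl, a phosphatase. Among the 4 tested genes for nucleotide release, Gja1 (connexin 43) had 33.2 ± 3.70 RPKM and a log2 fold change of -0.18. Slc17a9, the vesicular nucleotide transporter, had 13.4 CPM in sgCda 4 and between 1.83 and 3.37 CPM in the other 9 tumors. It had 2.67 ± 0.577 CPM (mean ± SD) over the 5 sgNT and 5.07 ± 4.67 CPM over the 5 sgCda tumors, and its log2 fold change was 0.92 (95% confidence interval -0.08 to 1.92), or 0.17 without sgCda 4.

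The 7 genes for making and transporting UDP-sugars ranged from -0.06 to 0.08 on the log2 scale, with Ugp2, which makes UDP-glucose, highest in level at 26.8 ± 2.86 RPKM and Slc35d1 the largest in size at 0.08. Of the Gq genes, 5 of 11 had a positive log2 fold change, Gnaq having the highest level (26.5 ± 3.80 RPKM, log2 fold change 0.10) and Gna14 the largest value (0.28). Of the Gi genes, 2 of 10 were positive, against 52.9% of all genes, and all values were small, from -0.10 to 0.03. Gnai2 was highest in level (207 ± 12.2 RPKM, log2 fold change -0.06) and Gnb2 the largest in size (-0.10). Of related receptors near the P2Y genes in the genome or in sequence, 7 of 10 were positive, and Gpr65, an acid-sensing receptor, had the highest level (36.6 ± 4.89 RPKM, log2 fold change 0.12). Gpr34, a lysophosphatidylserine receptor, had the largest value of that list (0.30).

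Inside Med12l on chromosome 3, Gpr171 had a log2 fold change of 0.07. Med12l itself, which is read from the other strand, had 2.13 ± 0.502 CPM (mean ± SD) over the 5 sgNT and 2.53 ± 0.819 CPM over the 5 sgCda tumors, with a log2 fold change of 0.25, or 0.07 without sgCda 4. Its level per length was 0.183 RPKM on average, against 7.40 for P2ry12, with which it shares 9 exonic bases.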

How the data were processed

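Polyadenylated RNA of 10 whole tumors was sequenced by the authors from stranded libraries, aligned to GRCm38 (mm10) with TopHat and Bowtie and counted per gene with HTSeq. The submitters' processing notes name FastQC 0.11.5, Bowtie2 and HTSeq 07.2. The strand setting and annotation release were not given in the sources used here. The values are raw gene counts as deposited, 1 column a tumor, with 0 columns of other samples. Tumors were grouped by their titles.

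Genes were filtered with filterByExpr (minimum count 10, minimum total 15), scaled by TMM and compared with edgeR's quasi-likelihood test (edgeR 4.0.16, R 4.3.3) with no covariate, with Benjamini-Hochberg adjustment over 15299 genes. Confidence intervals (95%) came from the fold change and its standard error. CPM used TMM-scaled library sizes, and log2 CPM a prior count of 2. RPKM was computed from CPM and GENCODE vM21 exon lengths. A marker score was the mean log2 CPM of a list's genes above the filter. Scores and receptor-to-score differences were compared by exact permutation over all assignments, and correlations by 100000 permutations, two-sided, adjusted within each family of relations. The upper limit that a count of 0 allows was set at 3 counts, which covers counting error only. Depth was 28051907 to 39484964 assigned counts a tumor.

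The genes, the pathway and marker lists and the tests were chosen with earlier results of these data known. Named genes are the family, Cda, the 3 genes most correlated with each receptor, the highest and most changed gene of each pathway list, and the genomic neighbours Gpr171, P2ry10b and Med12l. A further neighbour that the rule names is not reported here. Marker genes with the highest or lowest r were named after their values were seen. Marker lists were macrophage (12 of 12 genes above the filter), T cell (11 of 11), B cell (4 of 7), neutrophil (6 of 7), dendritic cell (8 of 8), endothelial (8 of 8), fibroblast (7 of 7) and epithelial (7 of 8), and, for other tissue, platelet (4 of 6), skeletal muscle (5 of 6), keratinocyte (1 of 6) and adipocyte (6 of 6). Differences between groups over these last 4 had exact permutation p values of 0.857, 0.492, 0.206 and 0.778.

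Alternatives were DESeq2 size factors, library totals, other filters, the DESeq2 Wald test (DESeq2 1.42.0), the replicate number as a block, limma-voom (limma 3.58.1), the median in place of the mean for scores, a prior count of 0.5, and leaving out each tumor. The longest coding transcript as length, and correlations with tissue and library measures, were added after seeing the data. The edgeR and correlation steps were tested on simulated data.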

Additional observations from a re-analysis of the deposited data

Results flagged for a closer look

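In 44 groups of 5 tumors checked (receptor levels, receptor-to-score differences and the 8 main marker scores), 2 values lay far from the others of their group, and chance alone gives about 1 in 20 groups, or 2.2 here. The T cell score of sgNT 3 was 5.24, while the other sgNT tumors were between 4.65 and 4.81. The neutrophil score of sgCda 3 was 1.77, while the other sgCda tumors were between 2.62 and 2.95. Neither value was a receptor level.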

How the results depend on the processing

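The count of receptor genes with an adjusted p under 0.05 was 0 under every alternative run, and so was the count of pathway genes. Leaving out each tumor in turn gave log2 fold changes of 0.703 to 1.119 for P2ry1, 0.15 to 0.21 for P2ry2, -0.0792 to 0.109 for P2ry6, 0.10 to 0.38 for P2ry10, -0.0840 to 0.0664 for P2ry12, -0.0058 to 0.22 for P2ry13 and -0.0710 to 0.169 for P2ry14, so the sign of the last 3 and of P2ry6 was not fixed. P2ry12 was 0.0025 with library totals and P2ry14 -0.0018 with no filter on low counts. The number of receptor genes with an unadjusted p under 0.05 was between 0 and 2 when a tumor was left out, and 1 with no filter or with at least 10 counts in every tumor. For pathway genes this number was 0 to 3 without a tumor. Over all genes it was 830 with no filter and 280 to 747 without a tumor, the most without sgCda 3.

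With the median of the marker genes, differences relative to the macrophage score were -0.0322 for P2ry6, -0.0242 for P2ry14 and -0.0600 for P2ry12, and P2ry2 relative to the epithelial score was 0.0824. Without a tumor, these 4 ranged from -0.0114 to 0.0776, -0.0321 to 0.126, -0.0767 to 0.144 and -0.124 to 0.0506, P2ry13 from -0.0345 to 0.304, P2ry10 relative to the T cell score from 0.0725 to 0.451 and P2ry1 relative to the endothelial score from 0.801 to 1.27. Of 15 named pathway and neighbouring genes, Entpd1 (-0.12 to 0.01), Ugp2 (-0.03 to 0.11), Slc35d1 (-0.02 to 0.15), Gnaq (-0.0060 to 0.18), Gpr171 (-0.01 to 0.16) and P2ry10b (-0.28 to 0.08) changed sign. Among the 56 relations with marker scores, 1 passed without the 2 farthest tumors and 2 to 4 when each tumor was left out, and among pairs of receptors 0 to 1. P2ry2 with the epithelial score had r = -0.0196 as deviations from group means, and its r with P2ry6 ran from -0.434 to 0.170 without a tumor. P2ry2 was 0.599 times P2ry14 by coding transcript length, with the same counts and only the length changed. The cause of the other changes was not tested.

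The replicate number was shared by both groups. Same-numbered tumors had correlations of their deviations of -0.0281, -0.0236, 0.331, -0.427 and 0.343 for numbers 1 to 5. For numbers 3 and 5 these exceeded the highest correlation with a tumor of another number (0.268 and 0.164). For numbers 1, 2 and 4 they were below it. These values are few and mixed, so they cannot decide whether the numbers pair the tumors. With a replicate block, P2ry1 had a log2 fold change of 0.94 and P2ry2 of 0.18, 1 receptor gene and 2 pathway genes had an unadjusted p under 0.05, and 0 genes passed the adjustment. Depth limits P2ry4 and P2ry1, with 16 and 190 counts in all tumors.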
